A study of Mus musculus with 18 samples.

Results

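HDAC1–Y48E and HDAC1-WT were compared in mouse embryonic stem cells (ESCs) after treatment to delete the endogenous Hdac1 and Hdac2 genes, so that a transgene was the intended source of HDAC1 in each line. The comparison takes the 3 libraries of OHT-treated HDAC1–Y48E cells and the 3 libraries of OHT-treated HDAC1-WT cells, chosen by their labels, which are 6 of the 18 RNA-seq libraries of the study. All were E14TG2a ESCs with floxed Hdac1 and Hdac2 alleles, grown on gelatine in medium with serum and leukemia inhibitory factor (LIF). A stably integrated piggyBac transgene encoded Flag-tagged HDAC1, either WT or with the Y48E substitution. OHT (4-hydroxytamoxifen, 1 µM) switches on the recombinase. The labels give 5 days of treatment. By the methods of the study, cells had OHT for the first part of that time and were then kept in culture until harvest. The same lines without OHT (3 libraries each) and OHT-treated cells of another mutant line, HDAC1–E63R (3 libraries), served for comparison. For Meg3 the level in untreated HDAC1–E63R cells is given too. Genotype and stable line go together, so a property of a line cannot be told apart from an effect of its HDAC1. The study describes the libraries of a group as biological replicates, and the p-values measure the spread between them.

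HDAC1 and HDAC2 remove acetyl groups from histone tails as the catalytic subunits of corepressor complexes. NuRD, CoREST, MiDAC, MIER and RERE hold the enzyme through scaffolds with ELM2 and SANT domains, such as MTA1 and RCOR1, whereas SIN3 proteins bind it in another way. Both mutated residues lie on the surface of HDAC1 that meets these scaffolds. In ESCs the complexes act at genes of pluripotency and at genes of later lineages. The comparison asks which transcripts differ between cells that depend on the Y48E enzyme and cells that depend on the WT enzyme.

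Counts on genes were between 10381752 and 11326898 in the HDAC1-WT libraries and between 9019615 and 10046717 in the HDAC1–Y48E libraries. Levels are given as CPM, counts per 1000000 counts of the library after TMM scaling. A count of 0 allows up to 3 counts, which lay between 0.265 and 0.301 CPM and covers counting error only. Between 21173 and 21409 genes had a count in an HDAC1-WT library, against 23110 to 23576 in an HDAC1–Y48E library. Hdac1 transcripts stood at 110, 111 and 113 CPM in HDAC1–Y48E and at 169, 173 and 179 CPM in HDAC1-WT libraries, without overlap. The log2 fold change was -0.64 ± 0.09 (SE, edgeR adjusted p = 6.67e-06), and without OHT it was -1.02. Hdac2 stood at 152, 142 and 139 CPM against 112, 126 and 133 CPM (adjusted p = 0.116). Without OHT, Hdac2 was at 151 ± 2.41 CPM in HDAC1–Y48E and 195 ± 22.9 CPM in HDAC1-WT cells (SD, n = 3). Its log2 fold change with OHT was -0.07 in the HDAC1–Y48E line and -0.66 in the HDAC1-WT line (edgeR adjusted p = 0.649 and 0.0125). Totals per gene did not check the OHT labels, since transgene reads can add to Hdac1 and a deleted allele can still be transcribed. Hdac1 is also 96.3% identical to AC125456.1 over 1450 bases. Of 14 fibroblast feeder markers, Lum, Dcn and Fap had no count in either group, and Col3a1, Postn and Twist2 had counts in HDAC1–Y48E libraries only. The summed level of the list was 272 to 295 CPM in HDAC1-WT and 281 to 293 CPM in HDAC1–Y48E libraries. Of the 7 tested, Col1a1 was higher (log2 fold change 2.09) and Loxl1 (-3.07) and Pdgfrb (-1.20) were lower by the test described below, with a list median of 0.75. Pdgfrb was not called without HDAC1-Y48E OHT replicate 1 (-0.99). For 9 haematopoietic markers the sums were 27.5 to 30.2 CPM and 20.8 to 31.1 CPM. Of the 6 tested, Cd34 was higher (2.33) and Cd68 was lower (-3.04), with a list median of 1.39. The part of these cell types in the results was not tested.

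Among 18791 genes tested, 2058 were higher and 1358 were lower in OHT-treated HDAC1–Y48E cells. A differentially expressed gene (DEG) had an adjusted p under 0.01 in edgeR's quasi-likelihood test with Benjamini-Hochberg adjustment and a change of more than 2-fold. These were 11.0% and 7.23% of the tested genes, and 18.2% in either direction, and the counts of each gene list below are to be read against those shares. In 3410 of the 3416 DEGs the libraries of the groups did not overlap. The DEGs were chosen from these same libraries, so this count is no separate support for them. The share without overlap among all tested genes is not given here, so the count has no background. The median log2 fold change was 2.53 for the higher DEGs, -1.52 for the lower DEGs and 0.02 for all tested genes.

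Some of the difference was there before OHT. Untreated HDAC1–Y48E and untreated HDAC1-WT cells, which share no library with the OHT-treated groups, differed by 493 higher and 554 lower DEGs (2.62% and 2.95% of genes tested). Of the DEGs after OHT, 354 of the higher (17.2%) and 236 of the lower (17.4%) had been called in the same direction without OHT, and 42 in the opposite direction. The gap between the lines with OHT was then tested against the gap without OHT in the same model. It was more positive with OHT for 873 genes and more negative for 746 (4.65% and 3.97%), and with library totals as the only scaling these counts were 1085 and 499. The test called 611 of the higher DEGs (29.7%) and 518 of the lower DEGs (38.1%) in the direction of the difference after OHT. It uses the same OHT-treated libraries that gave the DEGs, so this overlap is partly built in. Another 1788 DEGs were called neither in untreated cells nor by the test of the gap.

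**Figure D1:**
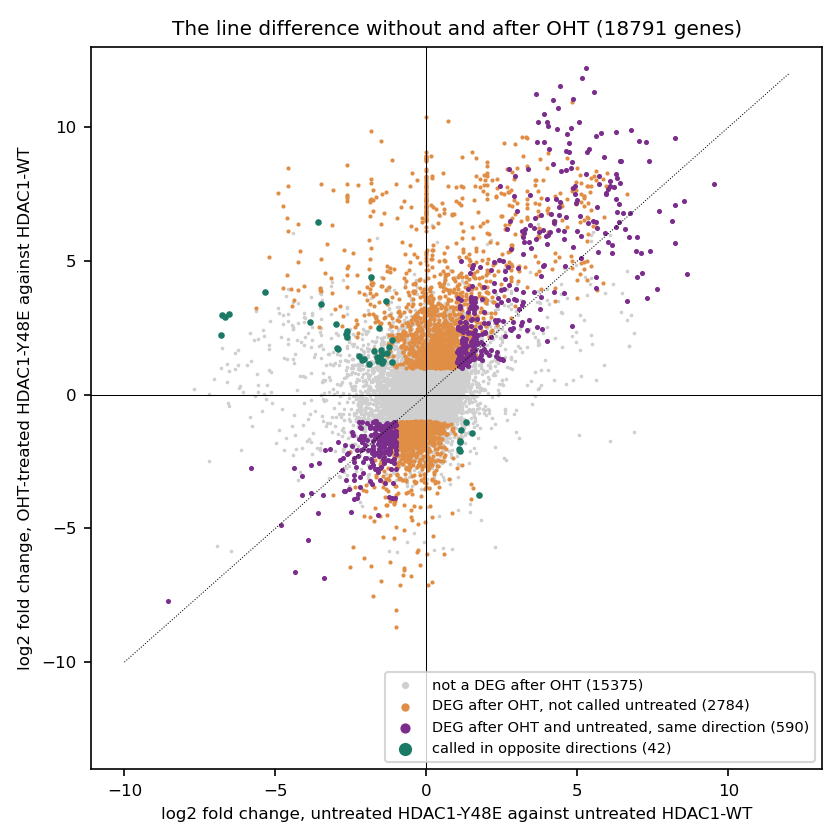
Each point is one of the 18791 tested genes, with the log2 fold change of HDAC1–Y48E against HDAC1-WT without OHT on the x axis and with OHT on the y axis. Of the DEGs after OHT, 590 were called in the same direction without OHT and 2784 were not called without OHT.

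Among transcripts of the complexes, 3 of 13 NuRD, 2 of 17 SIN3 and 1 of 9 MiDAC, MIER and RERE genes were DEGs, where 18.2% of all tested genes were. None of the 11 CoREST genes tested was a DEG, with log2 fold changes between -0.84 and 0.58. Of 13 NuRD genes, 1 was higher and 2 were lower. Mta3, an MTA scaffold gene, stood at 94.6, 92.4 and 94.1 CPM in HDAC1–Y48E and at 206, 227 and 215 CPM in HDAC1-WT libraries. Chd5, a chromatin remodeller gene, was lower (-1.41 ± 0.25), and Gatad2a, which encodes a linker between subunits, was higher (1.17 ± 0.10). Of 17 SIN3 genes, Sin3b was higher (1.02 ± 0.14) and Tet1, which encodes an enzyme that oxidises 5-methylcytosine, was lower (-2.25 ± 0.20). Atn1 was the only DEG of the 9 MiDAC, MIER and RERE genes (1.23 ± 0.31). Sin3b was no longer a DEG without HDAC1-WT OHT replicate 2 (0.99) or without HDAC1-Y48E OHT replicate 2 (0.96), nor was Atn1 without HDAC1-WT OHT replicate 2 (1.00) or without HDAC1-Y48E OHT replicate 1 (1.08). Atn1 is also identical to Gm45234 over 3838 bases, where reads cannot be told apart. Gatad2a and Sin3b lie on chromosome 8 and Atn1 on chromosome 6, whose genes had median log2 fold changes of 0.34 and 0.60. Mta1, Rcor1, Kdm1a and Sin3a were not DEGs, with log2 fold changes of -0.34, -0.59, 0.00 and 0.13.

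Among the core pluripotency factors 5 of 10 were lower. Pou5f1, the gene for OCT4 (chr17:35506018-35510772, mm10), stood at 384, 395 and 336 CPM in HDAC1–Y48E and at 1190, 1170 and 1260 CPM in HDAC1-WT libraries, and the groups did not overlap. The log2 fold change was -1.70 ± 0.13 (adjusted p = 8.22e-10). Without OHT, Pou5f1 was at 1070 ± 42.1 CPM in HDAC1–Y48E and 1250 ± 66.3 CPM in HDAC1-WT cells (SD, n = 3). Nanog stood at 257, 254 and 251 CPM against 866, 885 and 889 CPM, and Sox2, which encodes the DNA-binding partner of OCT4, had a log2 fold change of -1.70 ± 0.11. Utf1 (-1.54) and Mycn (-1.32) were the other lower members, and none was higher. Sall4 (-0.39), Trim28 (-0.25), Zfp281 (-0.35), Lin28a (0.68) and Myc (1.61) were not DEGs. The list median was -0.86 with OHT and -0.20 without it. Sox2 was already lower without OHT, at 310 ± 6.84 CPM against 533 ± 22.7 CPM (-0.78, edgeR adjusted p = 1.98e-05). Nanog had -0.52 there (adjusted p = 0.000403) and Pou5f1 had -0.24 (adjusted p = 0.216), and none of them passed the 2-fold limit. The gap between the lines changed with OHT for Pou5f1 (-1.46) and Nanog (-1.28), but for Sox2 the change was not called (-0.91).

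Naive pluripotency genes, which mark the state of the preimplantation epiblast, were lower in 16 and higher in 3 of 24 cases. Their median log2 fold change was -1.62 with OHT and -0.04 without OHT, where 3 members were higher and 2 lower. Prdm14, which encodes a repressor that keeps de novo DNA methyltransferases low (chr1:13113457-13127163), had the most negative value of the list (-4.12 ± 0.20, adjusted p = 3.07e-13). Its levels were 2.71, 3.90 and 3.78 CPM in HDAC1–Y48E and 55.5, 65.2 and 60.9 CPM in HDAC1-WT libraries. Tcl1, an AKT cofactor gene, followed with -3.20, and the ligand gene Fgf4 (chr7:144847367-144865243) with -2.73. The transcription factor genes Tfcp2l1, Tbx3, Klf2, Nr5a2 and Esrrb had log2 fold changes of -2.65, -2.56, -2.50, -2.40 and -1.81. Tbx3 and Jam2 had been DEGs without OHT (-1.08 and -1.43), whereas Klf2 and Esrrb had not (0.15 and 0.10). Tdgf1, a NODAL coreceptor gene, stood at 434, 471 and 419 CPM against 1830, 1900 and 2370 CPM. Zfp42 (also called Rex1, -0.54) and Klf5 (-0.55) were not DEGs. Dppa3, a maternal factor gene, was higher, at 60.9, 54.4 and 52.5 CPM against 6.93, 4.72 and 6.18 CPM, as were Gbx2 (1.56) and Fbxo15 (1.02). Fbxo15 was no longer a DEG without HDAC1-WT OHT replicate 1 (0.97) or without HDAC1-Y48E OHT replicate 1 (0.98).

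**Figure D2:**
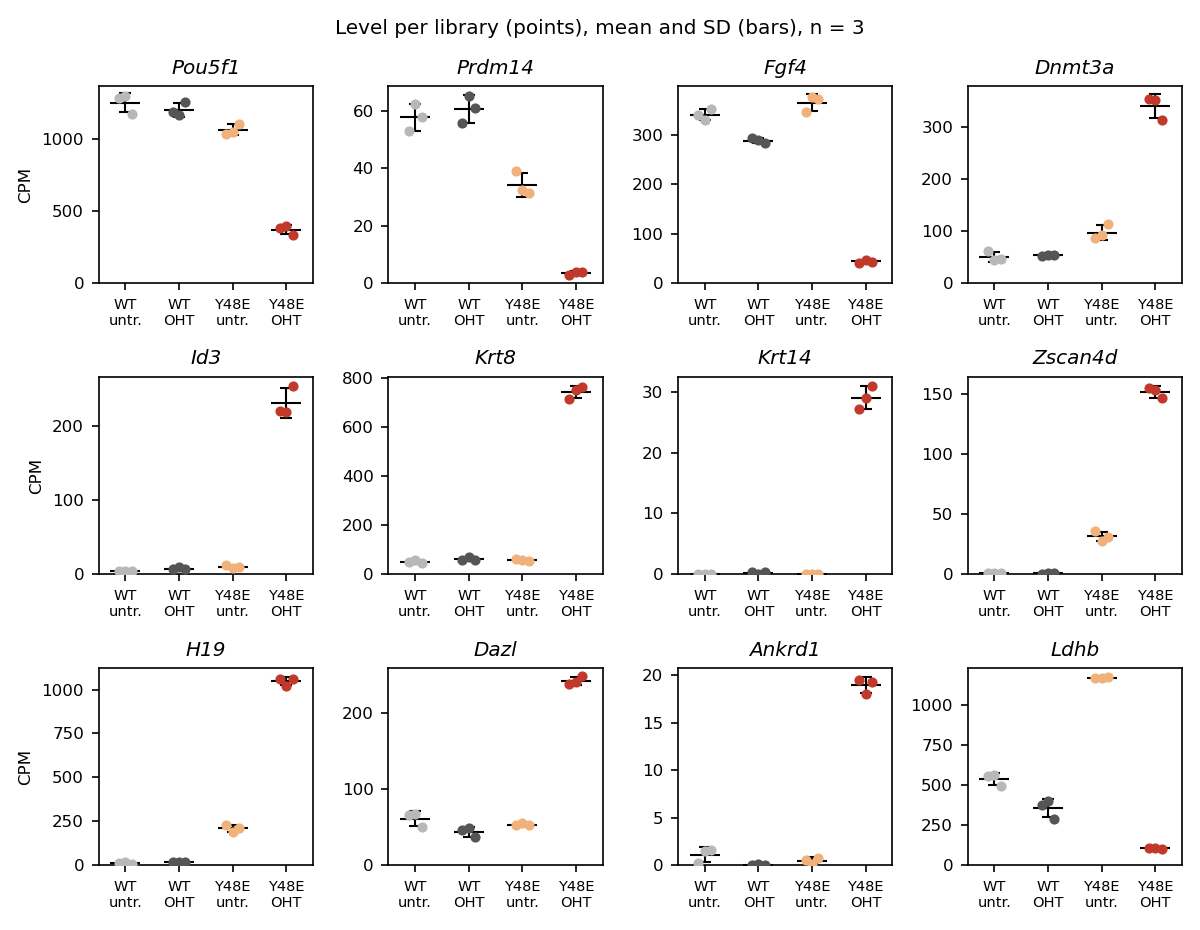
CPM of 12 genes in each library of the OHT-treated and untreated groups (points), with the mean and SD of 3 libraries (bars). The OHT-treated HDAC1–Y48E libraries are low for Pou5f1 (384, 395 and 336 CPM) and high for Krt8 (714, 749 and 763 CPM).

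Genes of DNA methylation differed in both directions, with 3 higher and 3 lower of 10. Dnmt3a, which encodes a de novo methyltransferase (chr12:3806007-3914443), stood at 354, 352 and 313 CPM in HDAC1–Y48E and at 52.1, 54.5 and 54.1 CPM in HDAC1-WT libraries (2.66 ± 0.14, adjusted p = 2.61e-12). Dnmt3b and the cofactor gene Dnmt3l had log2 fold changes of 1.32 and 1.68. Tet1 and Tet2, whose products oxidise methylcytosine, had -2.25 and -1.63, and Prdm14 is the other lower member. The maintenance genes Dnmt1 (-0.11) and Uhrf1 (-0.22) were not DEGs. No gene of the list was a DEG without OHT, where Dnmt3a had 0.95 (edgeR adjusted p = 3.73e-05). Dnmt3l (0.79, adjusted p = 2.13e-05) and Prdm14 (-0.75, adjusted p = 0.00152) also passed the p limit there. These 3 genes thus missed only the 2-fold limit, whereas Dnmt3b (0.38, adjusted p = 0.121) missed both.

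Formative and primed genes, which are used as the epiblast leaves the naive state, had 8 higher and 6 lower members of 16. Otx2, a transcription factor gene of that transition, stood at 6.32, 8.07 and 3.15 CPM against 66.0, 69.2 and 77.4 CPM in HDAC1-WT libraries, and it had been lower without OHT (-2.72). Lef1 (-3.85), Zic2 (-2.27) and Etv5 (-1.30) were lower as well. Pou3f1 (2.31), Sox3 (3.86), Sox11 (3.30) and the tight junction gene Cldn6 (2.02) were higher. Cdh2, which encodes N-cadherin, stood at 4.62, 5.35 and 5.67 CPM against 0, 0 and 0.442 CPM.

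In the FGF and ERK list 4 of 19 genes were higher and 4 lower. The ligand gene Fgf15 stood at 2.01, 2.54 and 1.80 CPM in HDAC1–Y48E and at 46.7, 46.3 and 51.1 CPM in HDAC1-WT libraries. The receptor gene Fgfr2 (2.44) and the feedback gene Spry2 (1.83) were higher. Dusp4, a MAP kinase phosphatase gene, stood at 257, 249 and 255 CPM against 11.6, 8.25 and 6.71 CPM, and untreated HDAC1–Y48E cells already held 137 ± 8.87 CPM. In the LIF and STAT3 list, 2 of 12 genes were lower, the receptor gene Lifr (-1.16) and Bcl3 (-1.09), and none was higher.

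Id genes encode inhibitors of basic helix-loop-helix factors and are targets of BMP signalling. Id3 (chr4:136143497-136145755) stood at 220, 218 and 253 CPM in HDAC1–Y48E and at 6.26, 9.25 and 6.27 CPM in HDAC1-WT libraries (4.98 ± 0.18, adjusted p = 2.52e-15). Id1 stood at 393, 387 and 380 CPM against 56.7, 44.4 and 44.5 CPM, and Id2 had a log2 fold change of 1.45. Without OHT, Id3 had been higher (1.16), and Id1 and Id2 had -0.39 and -0.42 and were not DEGs. In the BMP list, which holds the Id genes, 7 of 20 were higher and 2 lower, namely the ligand gene Bmp7 (-1.43) and the inhibitory Smad7 (-1.53). In the WNT list 6 of 23 were higher and 5 lower. The ligand gene Wnt7b stood at 94.1, 107 and 110 CPM against 23.4, 20.9 and 10.2 CPM, and Wnt4 at 23.1, 21.2 and 22.0 CPM against 3.18, 1.45 and 0.883 CPM. The receptor genes Fzd5 (-1.26) and Fzd7 (-1.14) and the antagonist gene Sfrp1 (-1.63) were lower. In both the BMP and the WNT list, some counted members were no longer DEGs in some or all fits without 1 library.

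**Figure D3:**
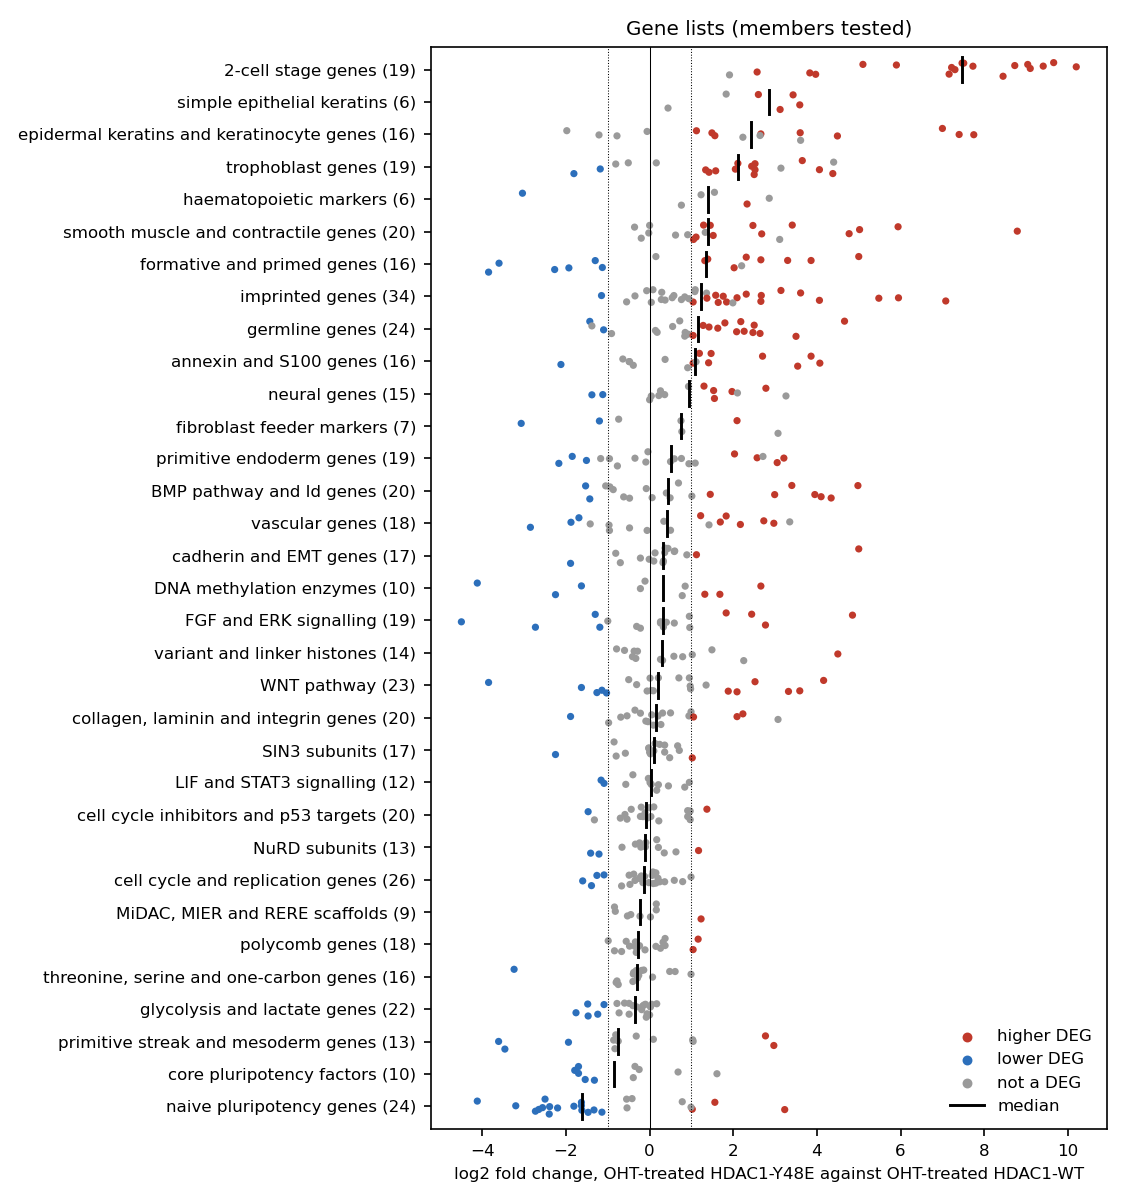
Log2 fold change of OHT-treated HDAC1–Y48E against OHT-treated HDAC1-WT for the tested members of each list shown (points), with the list median as a bar. The median is 7.47 for the 2-cell list and -1.62 for the naive pluripotency list, against 0.02 over all tested genes.

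Keratins of simple epithelium, the intermediate filaments of trophectoderm and gut, were higher in 4 of 6 genes (median 2.86, and -0.19 without OHT). Krt8 (chr15:101996698-102004482) stood at 714, 749 and 763 CPM in HDAC1–Y48E and at 58.4, 68.6 and 57.9 CPM in HDAC1-WT libraries (3.59 ± 0.12, adjusted p = 1.35e-15). Krt18, which encodes its filament partner, stood at 433, 439 and 477 CPM against 47.0, 49.4 and 28.3 CPM. Krt19 had 2.60, and Krt7 (0.44) was not a DEG. Krt23 was the other higher member (3.12, adjusted p = 0.00735), but it was not called with a replicate block (3.11), with no filter on low counts (3.12), with glmTreat against a 2-fold change (3.12) or without HDAC1-WT OHT replicate 1 (3.35), without HDAC1-WT OHT replicate 2 (2.95), without HDAC1-WT OHT replicate 3 (3.09), without HDAC1-Y48E OHT replicate 1 (2.66), without HDAC1-Y48E OHT replicate 2 (3.33) or without HDAC1-Y48E OHT replicate 3 (3.28). Krt8 is 98.6% identical to Krt8-ps over 941 bases, and reads of the copies cannot be told apart there. Of 16 keratinocyte genes 9 were higher and none lower (median 2.43). Krt14 and Krt5, whose products pair in basal epidermis, stood at 27.2, 29.0 and 30.9 CPM against 0.385, 0 and 0.265 CPM and at 14.4, 16.1 and 15.7 CPM against 0.674, 0.816 and 0.530 CPM. Krt6a and Sprr1a, a gene of the cornified envelope, had no count in OHT-treated HDAC1-WT libraries and were at least 9.52-fold and 7.45-fold higher, with 3 counts per library as the limit. Klk10 (3.60), Krt17 (1.56) and Sfn (1.49) were higher too.

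Promoters of keratinocyte genes are shown because 3 of the 7 starts of their higher DEGs (42.9%) held TGACTCA, the AP-1 consensus, on either strand in the 250 bases upstream, against 3.39% of 15791 starts of all tested genes that matched a RefSeq promoter (12440 genes) and 5.21% of those of all higher DEGs. In the annexin and S100 list 2 of 5 such starts (40.0%) held it. It was 1 of 5 motifs counted in several gene sets, the others being the TATA box TATAAA, the CCAAT box, the GC box GGGCGG and the E-box CACGTG, and those described here were picked with the shares known. One of the genes behind the keratinocyte count, Cldn4, was not a DEG without HDAC1-WT OHT replicate 3 (0.99). The upstream bases of Krtdap (chr7:30787655-30787904, plus strand) and Sprr1a (chr3:92485882-92486131, minus strand) are from RefSeq (GRCm38.p6), 5′ to 3′, with TGACTCA or its reverse complement in capitals. A match says only that these letters are there.
Krtdap: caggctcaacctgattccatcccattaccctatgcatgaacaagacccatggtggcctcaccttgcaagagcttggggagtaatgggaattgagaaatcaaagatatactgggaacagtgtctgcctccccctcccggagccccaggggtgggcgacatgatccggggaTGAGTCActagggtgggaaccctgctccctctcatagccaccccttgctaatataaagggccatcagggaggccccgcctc
Sprr1a: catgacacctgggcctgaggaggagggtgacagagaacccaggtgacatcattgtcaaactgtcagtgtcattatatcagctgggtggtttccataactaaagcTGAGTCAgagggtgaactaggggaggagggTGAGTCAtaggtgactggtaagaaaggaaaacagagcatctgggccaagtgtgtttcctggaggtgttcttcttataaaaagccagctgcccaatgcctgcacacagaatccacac

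Trophoblast genes were higher in 12 and lower in 2 of 19 (median 2.11, or 1.58 with genes near 0 set at 3 counts). Some of the higher members, among them Gata3 and Ascl2, were no longer DEGs in some or all fits without 1 library. Defining regulators of trophoblast stem cells were at or near 0. Cdx2 stood at 0, 0 and 0.720 CPM in HDAC1–Y48E libraries and had no count in HDAC1-WT libraries, and Elf5 stood at 0.903, 0.635 and 0.360 CPM against 0, 0 and 0.177 CPM. Eomes had -0.81 and was not a DEG. Gata2 stood at 53.9, 48.4 and 61.9 CPM against 10.5, 10.6 and 7.86 CPM. Peg10, a retrotransposon-derived placental gene (chr6:4747306-4760517), had the largest gain in CPM of all DEGs, at 1490, 1510 and 1430 CPM against 87.7, 81.7 and 96.8 CPM (4.06 ± 0.18). The homeobox gene Esx1 stood at 70.7 ± 6.79 CPM against 17.1 ± 4.85 CPM (SD, n = 3), although without OHT it had been lower (-1.12). Hand1 likewise had 1.34 with OHT and -2.06 without. Rhox6, Rhox9 and Cited1 had 2.11, 2.52 and 3.65. Tfap2c (-1.81), which germ cells also use, and Dlx3 (-1.18) were the lower members.

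Genes of the contractile cytoskeleton, with targets of YAP, were higher in 12 of 20 and lower in none (median 1.39). Tagln, which encodes an actin-binding protein of smooth muscle, stood at 62.8, 68.6 and 74.0 CPM in HDAC1–Y48E and at 1.35, 1.45 and 0.530 CPM in HDAC1-WT libraries, and untreated HDAC1–Y48E cells held 16.6 ± 2.76 CPM. The myosin light chain gene Myl9 stood at 32.0, 33.9 and 30.6 CPM against 1.44, 1.36 and 0.706 CPM. Of the YAP targets, Ankrd1 (chr19:36111961-36120099) stood at 18.9 ± 0.820 CPM against 0, 0.0907 and 0 CPM. Cyr61 stood at 142, 143 and 150 CPM against 27.9, 29.6 and 10.3 CPM, and Ctgf had 2.47, where without OHT they had -0.49 and -0.55. Actb, a cytoplasmic actin gene, had 1.59 ± 0.11. Of 16 annexin and S100 genes 8 were higher and 1 lower. S100a6, which encodes a calcium-binding protein, stood at 267, 272 and 267 CPM against 15.0, 16.0 and 17.0 CPM, Anxa3 and Anxa1 had 3.54 and 2.70, and S100a13 was the lower one (-2.12). The fibronectin gene Fn1 was lower, at 289, 299 and 296 CPM against 1120, 1070 and 1090 CPM.

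Genes of the 2-cell embryo had the highest list median, 7.47, or 5.90 with genes near 0 set at 3 counts. Of 19 tested, 18 were higher and none lower, and 17 had been called higher without OHT (median 4.73). Zscan4d, of the zinc finger family that marks 2-cell-like cells in ESC cultures, stood at 155, 153 and 146 CPM in HDAC1–Y48E and at 0, 0.907 and 1.15 CPM in HDAC1-WT libraries. Untreated HDAC1–Y48E cells held 31.3 ± 3.86 CPM. Zscan4a stood at 20.4 ± 0.728 CPM with and 40.9 ± 6.31 CPM without OHT in HDAC1–Y48E cells. Zscan4b had no count in OHT-treated HDAC1-WT libraries and was at least 35.6-fold higher. The ubiquitin protease genes Usp17lb and Usp17le stood at 85.8, 76.0 and 75.8 CPM and 90.1, 86.3 and 90.1 CPM, against 0.482, 0.998 and 0 CPM and 0.578, 0.907 and 0 CPM. Tmem92 was lower with OHT, at 3.61, 5.71 and 4.41 CPM against 29.7 ± 2.82 CPM in untreated HDAC1–Y48E cells. Zscan4d is at least 95% identical to 9 other genes over 300 bases or more, so the levels of single members of the family are uncertain.

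Upstream sequences of these genes are shown because they held motifs at other shares than the rest. Of 12 starts of the higher DEGs of the list, 7 (58.3%) held TATAAA and 10 (83.3%) held CCAAT on either strand, against 6.68% and 35.3% of the starts of all tested genes and 9.20% and 32.3% of those of all higher DEGs. Their median number of CG dinucleotides was 1.5, against 14. Copies of a family share this sequence and are not separate cases. The 250 bases before the starts of Zscan4d (chr7:11166149-11166398, minus strand) and Usp17lb (chr7:104842584-104842833, minus strand) are given with TATAAA and CCAAT, or their reverse complements, in capitals.
Zscan4d: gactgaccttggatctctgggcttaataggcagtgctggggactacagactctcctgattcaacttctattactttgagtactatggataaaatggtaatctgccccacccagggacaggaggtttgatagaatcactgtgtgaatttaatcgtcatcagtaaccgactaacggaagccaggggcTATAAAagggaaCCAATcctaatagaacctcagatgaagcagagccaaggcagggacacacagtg
Usp17lb: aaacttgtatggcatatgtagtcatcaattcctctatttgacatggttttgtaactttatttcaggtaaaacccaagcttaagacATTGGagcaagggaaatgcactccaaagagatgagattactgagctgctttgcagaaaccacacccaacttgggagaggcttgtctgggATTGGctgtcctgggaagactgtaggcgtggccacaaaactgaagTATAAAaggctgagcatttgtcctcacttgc

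Germline genes, many of which ESCs keep silent by promoter methylation, were higher in 13 and lower in 2 of 24 (median 1.16). None had been called higher without OHT (median -0.23). Dazl, which encodes an RNA-binding protein of germ cells (chr17:50279395-50293636), stood at 238, 240 and 248 CPM in HDAC1–Y48E and at 45.9, 48.3 and 36.6 CPM in HDAC1-WT libraries (2.47 ± 0.14, adjusted p = 5.35e-12). Stra8, a gene of meiotic entry, stood at 133, 142 and 153 CPM against 33.5, 36.0 and 31.9 CPM. Asz1, of the piRNA pathway, stood at 14.1, 16.5 and 16.7 CPM against 0.674, 0.635 and 0.530 CPM. The tubulin gene Tuba3b stood at 136, 152 and 137 CPM against 15.1, 13.7 and 8.65 CPM, and it is 96.5% identical to Tuba3a over 1447 bases. Sycp1, which encodes a rod of the synaptonemal complex, had 2.18, the nucleotide carrier gene Slc25a31 had 2.26, and Taf7l had 2.50. Sycp3 (-1.43) and the receptor gene Kit (-1.10) were lower.

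The E-box CACGTG was searched for after these values had been seen. It lay in the 250 upstream bases of 7 of 16 starts of the higher germline DEGs (43.8%), on either strand, in 7.99% of starts of all tested genes and in 7.23% of those of all higher DEGs. Sycp1 (chr3:102936101-102936350, minus strand) and Slc25a31 (chr3:40708621-40708870, plus strand) are given with CACGTG in capitals.
Sycp1: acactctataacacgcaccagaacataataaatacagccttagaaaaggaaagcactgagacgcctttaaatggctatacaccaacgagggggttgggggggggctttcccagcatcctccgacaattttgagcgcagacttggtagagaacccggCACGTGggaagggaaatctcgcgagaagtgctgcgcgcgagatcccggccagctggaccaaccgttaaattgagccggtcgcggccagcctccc
Slc25a31: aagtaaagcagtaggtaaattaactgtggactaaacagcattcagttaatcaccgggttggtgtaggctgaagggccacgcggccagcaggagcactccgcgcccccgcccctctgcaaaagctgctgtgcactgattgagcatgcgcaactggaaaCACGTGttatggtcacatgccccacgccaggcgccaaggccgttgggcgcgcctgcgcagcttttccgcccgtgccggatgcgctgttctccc

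Imprinted genes, expressed from one parental allele, were higher in 16 and lower in 1 of 34 (median 1.22), and 10 had been called in the same direction without OHT. H19, a noncoding RNA (chr7:142575529-142578143), stood at 1060, 1020 and 1060 CPM against 18.6, 16.8 and 15.3 CPM (5.95 ± 0.19, adjusted p = 7.40e-16), with 210 ± 21.0 CPM in untreated HDAC1–Y48E cells. Its neighbour Igf2 stood at 2.01, 1.63 and 0.900 CPM against 0.770, 0.363 and 0.618 CPM and was not a DEG. Mest (chr6:30723547-30748465) stood at 193, 178 and 166 CPM against 5.30, 2.72 and 3.97 CPM, but 23.1% of its exon bases overlap Copg2 on the other strand. The noncoding RNAs Meg3 (chr12:109541001-109571726), Rian (chr12:109603940-109661716) and Mirg, of one cluster on chromosome 12, had 2.31, 2.67 and 3.14. Nnat stood at 117, 136 and 125 CPM against 7.13, 11.4 and 12.4 CPM. Cdkn1c, a cyclin-dependent kinase inhibitor gene, was higher with OHT (1.37) and lower without it (-1.52). Phlda2 was the lower member (-1.15).

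Markers of primitive endoderm and of the germ layers were split. Of 19 primitive endoderm genes 4 were higher and 3 lower. The regulator genes Gata6 and Gata4 were lower with OHT (-2.17 and -1.85) and without it (-2.59 and -1.60), while the endocytic adaptor gene Dab2 stood at 32.9, 31.8 and 26.3 CPM against 4.82, 4.72 and 5.74 CPM. Of 13 streak and mesoderm genes 2 were higher and 3 lower, among them Gsc (-3.46) and the NODAL antagonist gene Lefty1 (-1.94). Of 15 neural genes 5 were higher, among them Syp (2.78) and Nes (1.97), and 2 were lower. Of 20 Hox genes tested, a set taken after its values were seen, 7 were lower and 2 higher, and 5 of the 7 were lower without OHT too. Hoxb13 stood at 0, 0.181 and 0.360 CPM against 10.7, 10.2 and 4.95 CPM.

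Glycolytic genes were lower in 5 of 22 and higher in none (median -0.36). Without OHT the median was 0.39, with 3 members higher. Ldhb, a lactate dehydrogenase gene (chr6:142490249-142507957), stood at 107, 109 and 99.9 CPM in HDAC1–Y48E and at 379, 399 and 291 CPM in HDAC1-WT libraries (-1.76 ± 0.14, adjusted p = 1.43e-09). Without OHT the order was turned, with 1170 ± 4.94 CPM against 539 ± 36.7 CPM. Ldhb is 98.0% identical to Gm5514 over 1002 bases. Aldoa, an aldolase gene, stood at 1570, 1700 and 1610 CPM against 3860, 3830 and 3840 CPM, and Hk1, Aldoc and Gpi1 had -1.48, -1.47 and -1.09. Tdh, the threonine dehydrogenase gene on which mouse ESCs depend, was the only DEG of 16 one-carbon genes, at 13.6, 14.7 and 17.2 CPM against 124, 129 and 177 CPM. Of 26 cell cycle genes 4 were lower, Ccnd1 (-1.39), Ccnd3 (-1.60), Cdt1 (-1.26) and Cdc6 (-1.09), and none higher. Cdc6 was no longer a DEG without HDAC1-WT OHT replicate 3 (-0.98). Cdkn1a, the p21 gene, had -0.22 and was not a DEG.

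Of the 18791 genes tested, 364 were DEGs at or under 3 counts in every OHT-treated HDAC1-WT library and at 1 CPM or more in every OHT-treated HDAC1–Y48E library. Of these, 210 are protein coding. Such genes can pass the filter on low counts through the groups where they are high. In OHT-treated HDAC1–E63R cells only 37 of the 364 were at or under 3 counts in each library. In untreated HDAC1–Y48E cells 142 of the 364 were at or under 3 counts in each library, and in untreated HDAC1-WT cells 249 were. In the other direction 30 DEGs were at or under 3 counts in every HDAC1–Y48E library and at 1 CPM or more in every HDAC1-WT library, 15 of them protein coding. Hesx1, a forebrain transcription factor gene, is one of them, at 0, 0.181 and 0 CPM against 5.49, 5.44 and 4.59 CPM. Inhbb, an activin subunit gene, stood at 3.01, 2.99 and 3.60 CPM against 87.4, 88.2 and 120 CPM (-4.94 ± 0.17), and the peptide transporter gene Slc15a1 and the ligand gene Fgf10 had -4.68 and -5.32.

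By CPM, the largest gains were those of Peg10, H19, Actb, Krt8 and Rian, and the largest losses those of Rpl13, Aldoa, Dppa5a, Tdgf1 and Pou5f1. Rpl13, a ribosomal protein gene, stood at 2480, 2350 and 2460 CPM in HDAC1–Y48E and at 5450, 5260 and 5080 CPM in HDAC1-WT libraries, and it is at least 95% identical to 8 other genes over 300 bases or more. Dppa5a, an RNA-binding protein gene of ESCs, stood at 961, 888 and 932 CPM against 2600, 2700 and 2410 CPM. Of DEGs without overlap at 5 CPM or more, Zscan4-ps2, which the annotation lists as protein coding, had the highest log2 fold change (12.2). It had no count in HDAC1-WT libraries and 57.2, 60.2 and 54.6 CPM in HDAC1–Y48E libraries (at least 208-fold higher). Lrtm2 had the lowest (-8.70), at 0, 0 and 0 CPM against 5.49, 5.17 and 4.50 CPM. Where a group has no count, the value and its rank depend on the prior count of the model. Akr1cl had 8.93, at 71.2, 68.4 and 58.1 CPM against 0.385, 0 and 0 CPM. Among genes called in opposite directions with and without OHT, S100a14 had 3.86 and -5.33, the lens filament gene Bfsp2 6.45 and -3.60, and the cilium assembly gene Zmynd10 -3.74 and 1.74. Without OHT, S100a14 was at 0, 0 and 0 CPM in HDAC1–Y48E and at 0.465, 0.0906 and 0.900 CPM in HDAC1-WT libraries. Bfsp2 was at 0, 0.228 and 0 CPM against 0.837, 1.54 and 0.700 CPM. The sizes of -5.33 and -3.60 thus rest on levels near 0 and depend on the prior count.

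Counts for the other lists follow. Vascular genes had 6 higher and 3 lower of 18, collagen, laminin and integrin genes 3 higher and 1 lower of 20, and cadherin and EMT genes 2 higher and 1 lower of 17. Polycomb genes had 2 higher and 0 lower of 18, and variant and linker histones 1 higher and 0 lower of 14. Cell cycle inhibitors and p53 targets had 1 higher and 1 lower of 20. Their medians were 0.42, 0.15, 0.33, -0.27, 0.29 and -0.08 in that order. Copies at least 95% identical over 300 bases or more were also found for Actb, Ccnd3, Cdc6, Dppa3, Dppa5a, Etv5, Fgfr2, Gpi1, Krt6a, Lefty1, Meg3, Sfn, Tdgf1 and Tdh, which may share reads with them.

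OHT-treated HDAC1–Y48E cells were also set against OHT-treated HDAC1–E63R cells, with 445 higher and 399 lower DEGs (2.37% and 2.12% of genes tested). With each of these 6 libraries left out in turn there were 274 to 314 higher and 325 to 347 lower DEGs, so that the balance turned, and with only these libraries in the fit there were 1012 and 474. Krt8 was 742 ± 25.5 CPM with HDAC1–Y48E and 225 ± 14.3 CPM with HDAC1–E63R (SD, n = 3), a log2 difference of 1.72 (edgeR adjusted p = 2.34e-10). HDAC1-WT had 61.6 ± 6.02 CPM. Prdm14 was 3.46 ± 0.654 CPM against 11.4 ± 2.14 CPM (-1.71), where HDAC1-WT had 60.5 ± 4.89 CPM. Fgf4 and Id3 differed by -1.54 and 1.43. Their means were 127 and 85.7 CPM with HDAC1–E63R and 289 and 7.26 CPM with HDAC1-WT. Dazl was 242 ± 5.30 CPM with HDAC1–Y48E and 42.9 ± 6.15 CPM with HDAC1–E63R, where HDAC1-WT had 43.6 ± 6.23 CPM. Meg3 was 602 ± 69.6 CPM with HDAC1–Y48E, 11.2 ± 1.78 CPM with HDAC1–E63R and 121 ± 8.71 CPM with HDAC1-WT. The lines had the same order without OHT, at 247 ± 20.4, 5.82 ± 1.87 and 94.3 ± 16.0 CPM. Zscan4-ps2 (0.84), Peg10 (0.61), Dnmt3a (0.51), Krt5 (0.43), S100a6 (0.28) and Sfn (0.00) were not DEGs between the mutants. Zscan4-ps2 and Peg10 missed only the 2-fold limit (edgeR adjusted p = 0.00119 and 0.00902). Dnmt3a and Krt5 missed the p limit too (adjusted p = 0.0104 and 0.409). Of the naive list 10 were lower and 1 higher with HDAC1–Y48E, and of the germline list 10 were higher and none lower. Of the 2-cell list 6 were higher and 1 lower.

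Chromosomes were compared as a description. The median log2 fold change of tested genes was 0.60 on chromosome 6 with OHT and 0.48 without, and 0.34 and 0.32 on chromosome 8. For HDAC1–E63R against the same OHT-treated HDAC1-WT libraries it was 0.60 and 0.44. On the X chromosome it was 0.29 with OHT and 0.00 without, and 22.7% of tested genes were higher DEGs. The other 17 chromosomes had medians between -0.12 and 0.07. Higher DEGs were 24.1% of the tested genes of chromosome 6, 15.4% of those of chromosome 8, and 7.12% to 12.1% on the other 17. Off chromosomes 6 and 8 there were 1638 higher and 1222 lower DEGs among 16528 genes with a position. Of the genes described above, Asz1, Atn1, Copg2, Dppa3, Gata2, Ldhb, Lrtm2, Mest, Nanog, Peg10, Stra8, Tuba3a and Tuba3b lie on chromosome 6. Cdt1, Dusp4, Gatad2a, Klf2, Rpl13, Sfrp1, Sin3b and Zfp42 lie on chromosome 8, and Cited1, Esx1, Rhox6, Rhox9, Sox3, Syp and Taf7l on X. The part of these shifts in their values was not tested.

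**Figure D4:**
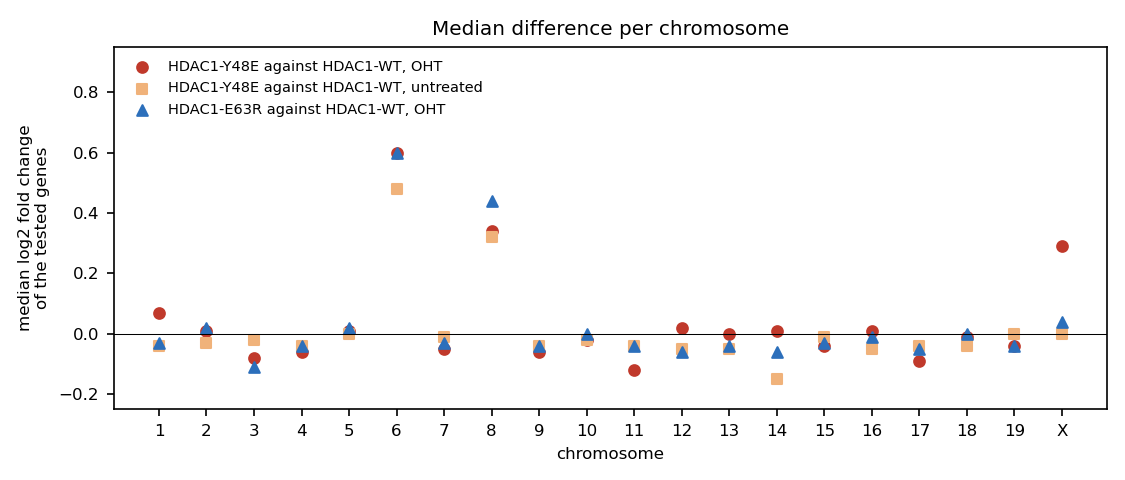
Median log2 fold change of the tested genes of each chromosome for HDAC1–Y48E against HDAC1-WT with and without OHT and for HDAC1–E63R against HDAC1-WT with OHT. Chromosome 6 lies at 0.60, 0.48 and 0.60 in these comparisons.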

How the data were processed

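RNA-seq of total RNA was measured in 18 libraries of 6 groups, 3 per group. Per the labels, the authors aligned reads to mm10 with HISAT2 2.1.0 and counted them with HTSeq, and the deposited values are raw counts per gene. The strand setting of the counting is not given in the sources used here, so overlapping genes on opposite strands may share reads. The 5 rows that name no gene held 59.4% to 61.2% of all counts and were left out. Of 53672 genes, 18791 passed filterByExpr by group. All libraries were fitted in 1 model with edgeR 4.0.16 (R 4.3.3), TMM factors and the quasi-likelihood F test. TMM factors were 1.001 to 1.01 in OHT-treated HDAC1-WT and 1.106 to 1.109 in OHT-treated HDAC1–Y48E libraries. Scripts were tested on simulated data. Library pairs of the 6 main libraries differed by 3.99 to 7.07 chi-square per degree of freedom. Untreated HDAC1–E63R replicate 3 stood apart (55.1 to 61.1) and entered the shared spread and the gene filter (19503 genes passed without it). Annotation matched 98.4% of tested genes. Genes were named by size of change, gain or loss in CPM, membership of gene lists, calls without OHT and calls against HDAC1–E63R. The members and lists were chosen with earlier results of these data known. Alternatives covered scaling, filters, DESeq2 1.42.0, thresholds, depth and single libraries.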

Additional observations from a re-analysis of the deposited data

Results flagged for a closer look

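The gap between HDAC1–Y48E and HDAC1-WT cells with OHT was tested against the gap without OHT, as an interaction in edgeR under the limits that define a DEG, and differed upward for 873 and downward for 746 genes. Of the genes named above, 53 had a more positive and 40 a more negative gap with OHT. Many of them were named as DEGs from OHT-treated libraries that this test also uses. Values are differences of log2 fold changes, and those of genes near 0 in a group depend on the prior count.

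The gap was more positive with OHT for Bfsp2 (10.05), Ankrd1 (9.94), S100a14 (9.18), Zscan4-ps2 (6.90), Asz1 (5.23), Tuba3b (4.85), Wnt4 (4.05) and Usp17le (4.04). A further set was Cited1 (3.87), Id3 (3.82), Klk10 (3.62), Peg10 (3.59), Hand1 (3.40), Id1 (3.39), Krt8 (3.38) and Anxa1 (3.35). Then came Krt18 (3.30), Cyr61 (3.17), Esx1 (3.17), Ctgf (3.02), Myl9 (3.01), Col1a1 (2.97), Krtdap (2.97) and Stra8 (2.92). Smaller changes were those of Cdkn1c (2.89), Krt19 (2.89), Zscan4d (2.88), Wnt7b (2.72), Dazl (2.68), Slc25a31 (2.60), S100a6 (2.58) and Nnat (2.57). The rest of these were Anxa3 (2.39), Mirg (2.27), Taf7l (2.22), Cldn6 (2.05), Mest (2.03), Dab2 (1.94), Sfn (1.92) and H19 (1.91). Others were Krt17 (1.88), Id2 (1.87), Sox11 (1.82), Dppa3 (1.80), Dnmt3a (1.72), Rhox6 (1.69), Sycp1 (1.68) and Spry2 (1.50). Also called were Fgfr2 (1.39), Tuba3a (1.39), Rian (1.36), Gata2 (1.19) and Nes (1.07).

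The gap was more negative with OHT for Lrtm2 (-7.71), Zmynd10 (-5.48), Slc15a1 (-4.21), Inhbb (-3.95), Fgf10 (-3.87), Tdh (-3.52), Prdm14 (-3.36) and Tcl1 (-3.02). A further set was Fgf15 (-2.91), Ldhb (-2.88), Fgf4 (-2.83), Klf2 (-2.65), Cd68 (-2.55), Lefty1 (-2.37), Tmem92 (-2.25) and S100a13 (-2.24). Then came Aldoc (-2.14), Tet2 (-2.02), Tet1 (-1.95), Esrrb (-1.92), Fzd7 (-1.79), Tfcp2l1 (-1.69), Nr5a2 (-1.65) and Fn1 (-1.65). Smaller changes were those of Hk1 (-1.62), Sfrp1 (-1.61), Gpi1 (-1.56), Tdgf1 (-1.52), Tbx3 (-1.49), Fzd5 (-1.48), Pou5f1 (-1.46) and Zic2 (-1.46). The rest of these were Lifr (-1.41), Aldoa (-1.34), Nanog (-1.28), Utf1 (-1.24), Mycn (-1.16), Ccnd3 (-1.10), Cdc6 (-1.08) and Dppa5a (-1.07).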

How the results depend on the processing

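Against 3416 DEGs with OHT, 1047 without OHT, 1619 for the change of the gap and 844 against HDAC1–E63R, the test against a 2-fold change (glmTreat) called 1537, 200, 376 and 144. With no fold limit 5968, 2285 and 1961 genes were called with OHT, without OHT and against HDAC1–E63R. With only the libraries compared, 1486 genes were called against HDAC1–E63R (1012 higher and 474 lower). Leaving out 1 library gave 3026 to 3074, 855 to 901, 1371 to 1442 and 599 to 661, the last with 274 to 314 higher and 325 to 347 lower where all libraries gave 445 and 399. Same-numbered libraries of the OHT-treated groups had correlations of -0.0117 to 0.016 in their deviations from the group means. No shared shift was seen, but such values cannot exclude a common batch. With a replicate block the counts were 3326, 1006, 1534 and 781. DESeq2 called 3663, 1254, 1942 and 982. Library totals alone moved the median of all genes with OHT to 0.16 and gave 2411 higher and 1053 lower DEGs, and against HDAC1–E63R 821 DEGs. Bcl3, Gpi1, Kit, Rpl13 and Cdc6 were not DEGs under that scaling. The following 2 settings were chosen after seeing the data. Without untreated HDAC1–E63R replicate 3 the counts were 3890, 1344, 2155 and 1127, and without genes of chromosomes 6 and 8 they were 2860, 821, 1446 and 666. Of 251 DEGs followed by name, 175 were called in each alternative, none was reversed, and 30 were lost in at least 1 fit without a single library.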
